A study of Bos taurus with 10 samples.

Results

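The 78 genes described here are those of the deposited table whose symbol begins with RPL or RPS followed by a digit, by P and a digit, or by a final A, with the ribosomal S6 kinase genes (RPS6K) left out. They were 78 of 12674 listed genes, and the rule left out 10 S6 kinase genes. By symbol, 44 of the 78 were counted with the large (60S) ribosomal subunit and 33 with the small (40S) subunit. The 44 include RPL7L1, a ribosome assembly relative of RPL7. The remaining gene of the 78, RPS19BP1, encodes a nucleolar protein that binds RPS19 and is not a ribosomal protein, although its symbol matches the rule. The other 77 are called ribosomal protein genes below. Members lay on 26 chromosomes, with 9 of them on chromosome 18, in the coordinates of the deposited table.

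Intramuscular fat, the marbling fat between the fibres of skeletal muscle, was set against subcutaneous fat in adult female cattle (Bos taurus). Intramuscular fat was taken from 5 Angus-crossbred heifers, and subcutaneous fat from the same 5 heifers, with 1 library per animal and depot. The tissue was whole adipose tissue with no treatment named in the labels, so each library mixes all cell types of the depot, and fewer cells of a type cannot be told apart from less RNA per cell. The study asked what differs between a slowly filling and a fast filling fat depot. RNA was primed with random hexamers for paired-end Illumina sequencing, and the values used are read counts per gene.

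Ribosomes are built from ribosomal RNA and one copy each of most ribosomal proteins, with the P-stalk proteins present as a cluster that recruits the elongation factors. The mRNAs of nearly all ribosomal proteins begin with a terminal oligopyrimidine (TOP) tract, and in mammalian cells mTORC1 adjusts their translation through this tract and the RNA-binding protein LARP1. In fat tissue, as elsewhere, they are among the most abundant mRNAs, and their level is often read beside cell growth and protein synthesis.

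The libraries held 9392739 to 14836808 counts on listed genes in intramuscular and 13776094 to 17685678 in subcutaneous fat. Of the fat markers looked for, adipocyte genes summed to 9116 to 31768 CPM (counts scaled to the library size after TMM correction) in intramuscular and 31801 to 46668 CPM in subcutaneous libraries. Striated muscle genes, of which 17 of 52 on the list had values, summed to 438 to 2556 CPM in intramuscular and 75.4 to 139 CPM in subcutaneous libraries, without overlap. The 10 most abundant genes of the table, none of them a ribosomal protein gene, took 6.57% to 11.8% of the counts of a library. No 2 libraries had identical counts. Subcutaneous replicates 3 and 5 stood apart from the other 8 libraries. In both, genes of up to 1000 bases were high and genes of over 4000 bases were low, and the results below are given with and without them where that moves the value. They were also the 2 subcutaneous libraries with the highest share of counts on the members. Leaving them out therefore lowers the subcutaneous level of the members by itself.

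Ribosomal protein transcripts did not differ between the depots beyond the spread of the libraries. The subcutaneous libraries lay further apart than the intramuscular ones. With 1 library per animal and depot, animals cannot be told apart from RNA quality or library preparation. The difference in spread was not tested. Together the 78 genes took 4.34%, 4.16%, 4.04%, 4.22% and 4.10% of the counts in intramuscular libraries 1 to 5. In subcutaneous libraries 1 to 5 they took 4.00%, 2.98%, 4.60%, 2.95% and 5.38%. The intramuscular libraries therefore lay within 0.302 percentage points of each other, inside the 2.43 points that the subcutaneous libraries covered. The mean share was 4.17% ± 0.116 in intramuscular and 3.98% ± 1.05 in subcutaneous fat (SD, n = 5 each), a difference of 0.192 percentage points. Without subcutaneous replicates 3 and 5, the 2 subcutaneous libraries with the highest share, that difference was 0.864 points. Leaving out the highest libraries raises it by itself. The difference was -0.0587 points without subcutaneous replicate 2 and -0.0664 points without subcutaneous replicate 4, so a single library decided its sign.

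The same pattern stood in each subunit. Large subunit genes took 2.33% ± 0.0676 of the counts in intramuscular and 2.18% ± 0.555 in subcutaneous libraries (SD, n = 5 each). Small subunit genes took 1.84% ± 0.0518 in intramuscular and 1.79% ± 0.493 in subcutaneous libraries (SD, n = 5 each). The ratio of large to small subunit counts was 1.24 to 1.29 in intramuscular and 1.19 to 1.26 in subcutaneous libraries, which overlap, and the 2 lowest ratios belonged to subcutaneous replicates 3 and 5.

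Gene by gene, the members moved up and down together from one subcutaneous library to the next. For each gene the log2 CPM of a library was set against the gene's mean over the 10 libraries, and the median over the 78 members was taken. It was -0.12, -0.09, -0.11, 0.06 and 0.03 in intramuscular libraries 1 to 5. It was 0.00, -0.43, 0.35, -0.42 and 0.72 in subcutaneous libraries 1 to 5. Subcutaneous replicate 5 was the highest library and replicate 3 the next, replicates 2 and 4 were the lowest, and all intramuscular libraries lay between them. The animal with the highest subcutaneous level was not set apart in its intramuscular library, and within heifers 1 to 5 intramuscular minus subcutaneous came to -0.13, 0.34, -0.46, 0.48 and -0.69. The direction thus differed between heifers, negative in 3 of them and positive in 2.

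**Figure D1:**
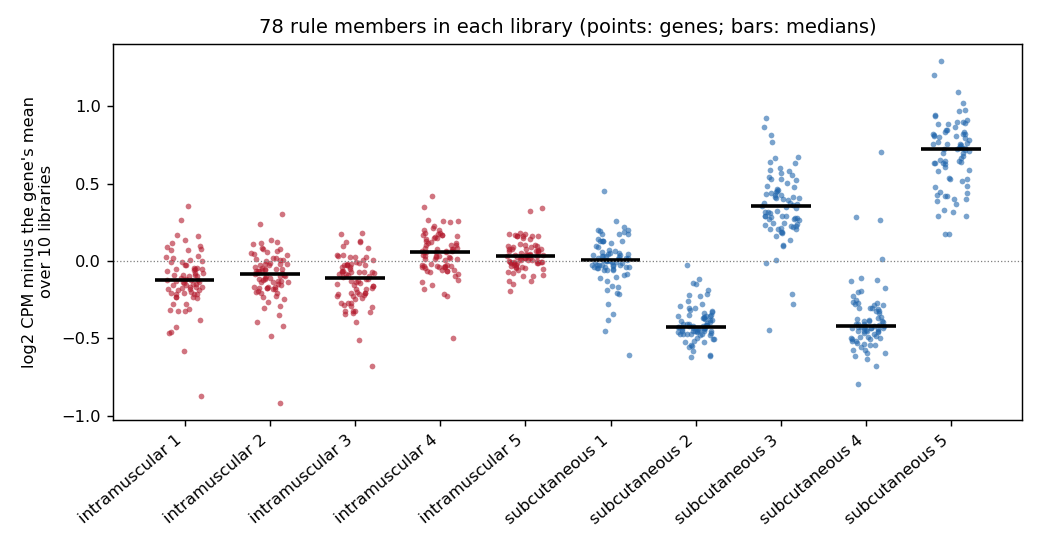
Log2 CPM of each of the 78 members minus the gene's mean over 10 libraries (y axis), by library (x axis, intramuscular left, subcutaneous right); points are genes and bars are medians. The intramuscular medians lie between -0.12 and 0.06, while the subcutaneous medians run from -0.43 in replicate 2 to 0.72 in replicate 5.

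This wider spread in subcutaneous fat was present in each of the 78 members, while 68.9% of all 12521 tested genes had the larger standard deviation (SD) there. The median SD of log2 CPM over the members was 0.12 in intramuscular and 0.48 in subcutaneous fat (n = 5 each), against 0.32 and 0.44 over all tested genes. In 67 of 78 members every intramuscular value lay inside the subcutaneous range, compared with 22.8% of all genes. The highest library was subcutaneous replicate 3 or 5 in 75 of 78 members and in 32.6% of all genes, and it was replicate 5 in 74 of them. The lowest library was subcutaneous replicate 2 or 4 in 69 of 78 members and in 13.9% of all genes. Among the 77 ribosomal protein genes the median pairwise Pearson correlation over libraries was 0.53 across the 5 intramuscular and 0.95 across the 5 subcutaneous libraries (2926 gene pairs that share the same libraries and depth, given as a description). Without subcutaneous replicates 3 and 5 the SD was still the larger one in subcutaneous fat in 69 of 78 members, where 46.6% of all genes had it. Without replicates 2 and 4 it was the larger one in 75 of 78, against 67.0% of all genes.

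Other gene sets moved with the members in part of these libraries. In subcutaneous replicates 3 and 5 the median deviation of the mitochondrial ribosomal proteins (76 genes), which translate the few mRNAs of the mitochondrial genome, was 0.40 and 0.69. That of the proteasome subunits (47 genes), which form the main protein-degrading complex of the cytosol, was 0.39 and 0.63, and that of 815 other genes of up to 1000 bases was 0.40 and 0.58. The members stood at 0.35 and 0.72 in the same 2 libraries, and 2679 other genes of over 4000 bases at -0.19 and -0.42. The high level in replicates 3 and 5 was therefore shared by short genes at large. In subcutaneous replicates 2 and 4 the sets parted. The members were at -0.43 and -0.42 there, while the mitochondrial ribosomal proteins were at -0.17 and 0.09, the proteasome subunits at -0.20 and 0.18, and the other short genes at -0.08 and 0.01. Members are short, with gene models of 320 to 3202 bases and a median of 855 against 2578.5 for all listed genes. With a gene length correction in each library, the members' medians ran from -0.03 to 0.11 in intramuscular and from -0.38 to 0.21 in subcutaneous libraries, and 77 of 78 members kept the larger SD in subcutaneous fat, where 65.8% of all genes had it. Macrophage marker genes summed to 210 to 447 CPM in intramuscular and 216 to 1087 CPM in subcutaneous libraries. Of the latter, replicate 3 was the lowest and replicate 5 the highest. Endothelial markers summed to 2067 to 2632 CPM in intramuscular and 2576 to 4646 CPM in subcutaneous libraries, highest in replicate 1. Fibro-adipogenic progenitor markers summed to 12888 to 14379 CPM in intramuscular and 10870 to 24797 CPM in subcutaneous libraries, lowest in replicate 3. In the same order, mural markers summed to 2099 to 2676 and 1702 to 2515 CPM, and lymphocyte markers to 41.8 to 60.8 and 43.9 to 77.4 CPM. The part of cell composition in the members' spread was not tested.

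**Figure D2:**
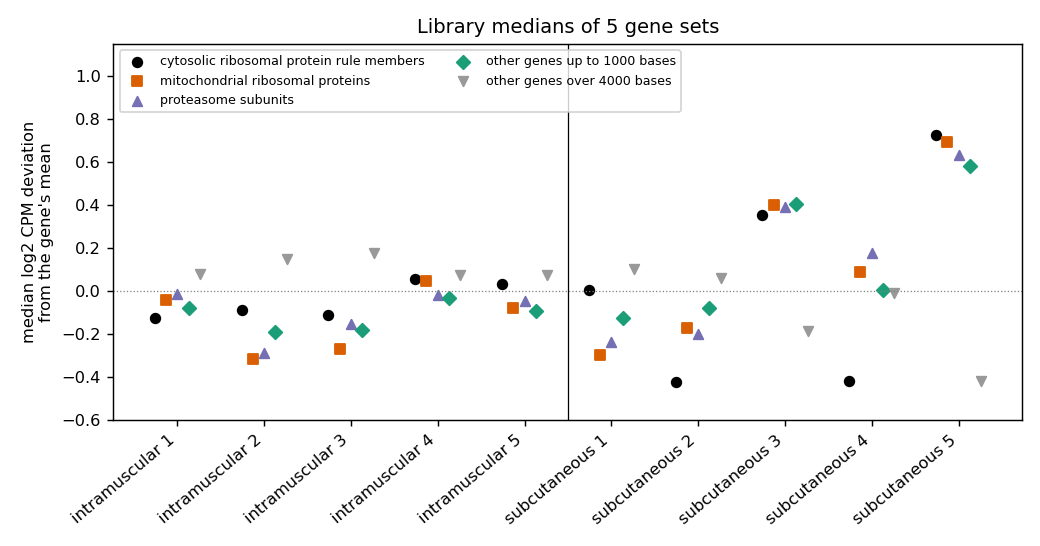
Median deviation of log2 CPM from each gene's mean (y axis) in each library (x axis, intramuscular left, subcutaneous right) for the members and 4 other gene sets, 1 point per set. In subcutaneous replicates 3 and 5 the members, mitochondrial ribosomal proteins, proteasome subunits and short genes are all high, whereas in replicates 2 and 4 the members, at -0.43 and -0.42, lie below the other sets.

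Against this spread, the test of depot called 1 member. All 78 members passed the filter on low counts (lowest member count in any library 102). By edgeR's quasi-likelihood test, adjusted after Benjamini and Hochberg over all tested genes, 0 of 78 members were higher in intramuscular fat, where 6.75% of all tested genes were. A single member (1 of 78) was lower, where 5.49% of all tested genes were, and it was RPS19BP1, so that none of the 77 ribosomal protein genes passed in either direction. At an unadjusted p under 0.05 edgeR gave 3 of 78 members (RPS19BP1, RPLP2 and RPSA) and 30.7% of all genes. In the authors' deposited table the same 1 of 78 members had an adjusted p under 0.05, where 10.8% of the genes stood on the higher side for intramuscular fat and 9.24% on the lower side. With the heifer as a block edgeR again called RPS19BP1 alone among the members, 0 of 78 higher where 8.09% of all genes were and 1 of 78 lower where 6.96% were. The 2 depots' values did not separate without overlap in any of the 78 members, although they did in 12.9% of all genes (7.85% with intramuscular fat higher, 5.04% with it lower).

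The estimates leaned to the subcutaneous side, with 63 of 78 members at a negative log2 fold change (intramuscular over subcutaneous) and 52.9% of all genes so. The median log2 fold change was -0.18 over the members, -0.18 over the large and -0.17 over the small subunit genes, and -0.04 over all tested genes. This lean rested on subcutaneous replicate 5, without which the median was 0.02 and 34 of 78 members were negative. Without replicates 3 and 5, the 2 subcutaneous libraries highest in these transcripts, the median was 0.20 with 71 of 78 positive. Leaving out the highest libraries raises this value by itself. Without subcutaneous replicate 2 alone 70 of 78 members were negative, and without replicate 4 alone 71 of 78. With the gene length correction the median was 0.10. Over the 77 ribosomal protein genes the log2 fold changes ran from -0.58 to 0.37, and the smallest edgeR adjusted p was 0.110. The 95% interval of the log2 fold change lay inside -1 to 1, a change of less than a doubling either way, in 73 of these 77 genes and in 51.4% of all genes. The exceptions were RPL12, RPLP2, RPS21 and RPSA. The half-width of the interval was 0.36 to 0.83 with a median of 0.48, before any adjustment for the number of genes tested. As a comparison, 0 of 76 mitochondrial ribosomal protein genes were higher and 4 lower (MRPS11, MRPL41, MRPL36 and MRPL57, chosen after their values were seen), a share of 5.26% beside the 5.49% of all genes, with a median of -0.36. Of 47 proteasome subunits 0 were higher and 1, PSMB8, was lower, with a median of -0.33, and other genes of up to 1000 bases had a median of -0.32. These medians, too, rested on subcutaneous replicates 3 and 5. Without them the median was -0.01 for the mitochondrial ribosomal proteins, -0.05 for the proteasome subunits and -0.04 for the other short genes, and 0 of the 76 and 0 of the 47 genes passed in edgeR. Both libraries were also the highest in these sets, so leaving them out raises the medians by itself. Calls over all genes fell as well, to 537 higher and 299 lower, against 845 and 688 with all libraries.

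**Figure D3:**
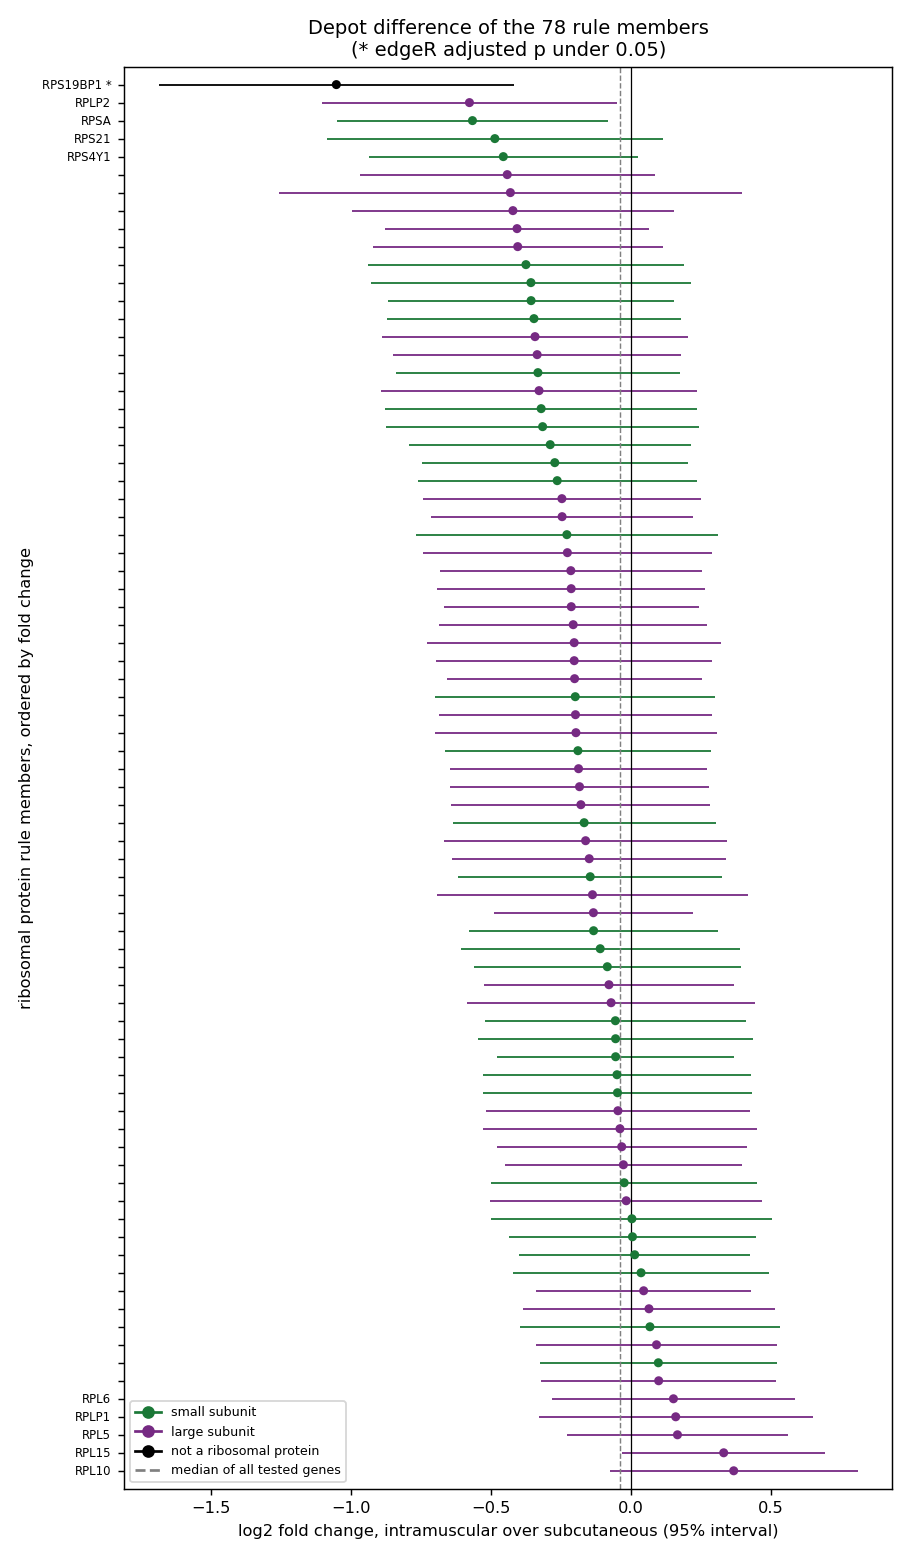
Log2 fold change, intramuscular over subcutaneous, with its 95% interval (x axis) for each of the 78 members (y axis, 1 row per gene, with the called member and the 5 lowest and 5 highest named), coloured by subunit; the dashed line is the median of all tested genes. Only RPS19BP1, at -1.05, has an edgeR adjusted p under 0.05, and the ribosomal protein genes run from -0.58 (RPLP2) to 0.37 (RPL10).

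RPS19BP1 (ENSBTAG00000017463, chromosome 5, 110951323 to 110954950), the RPS19-binding protein, had 34.4, 25.2, 29.7, 40.7 and 44.5 CPM in intramuscular libraries 1 to 5. It had 37.5, 43.2, 87.0, 77.8 and 116.9 CPM in subcutaneous libraries 1 to 5. It was lower in the intramuscular library of each heifer, and the depots overlapped only through subcutaneous replicates 1 and 2, which lay within the intramuscular range. Its log2 fold change was -1.05 ± 0.29 (SE) with an edgeR adjusted p of 0.0357, and 0.0194 with the heifer as a block. The authors' deposited table gives -1.05 and an adjusted p of 0.0083. The call was kept in 3 of 10 edgeR fits that each left out 1 library, with adjusted p values of 0.0123 to 0.0917. It was lost in 7 of them, without any of intramuscular replicates 1 to 4 or subcutaneous replicates 3 to 5. Without subcutaneous replicates 3 and 5 the log2 fold change was -0.60 (edgeR adjusted p = 0.187).

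Among the small subunit genes, RPSA, which encodes the protein also known as the laminin receptor precursor, was the member nearest to the threshold after RPS19BP1. RPSA (chromosome 22, 12684159 to 12710177) had 855.6, 872.1, 906.7, 1069.3 and 971.5 CPM in intramuscular libraries 1 to 5. It had 1144.8, 1026.4, 1672.7, 1016.6 and 2061.5 CPM in subcutaneous libraries 1 to 5. Only intramuscular replicate 4 exceeded any subcutaneous library. The log2 fold change was -0.57 ± 0.22 (SE, edgeR adjusted p = 0.110). RPS21, a small protein of the 40S subunit (chromosome 13), had 99.9 to 136.3 CPM in intramuscular and 96.6 to 267.4 CPM in subcutaneous libraries, and its highest values again belonged to subcutaneous replicates 3 and 5. Its log2 fold change was -0.49 ± 0.28 (SE, edgeR adjusted p = 0.252) and turned to 0.13 without those 2 libraries. RPS6, the 40S protein that S6 kinases phosphorylate downstream of mTORC1, had 556.4 to 723.4 CPM in intramuscular and 456.3 to 973.5 CPM in subcutaneous libraries, with a log2 fold change of -0.08 ± 0.22 (SE, edgeR adjusted p = 0.833). RPS27A, made as a fusion with ubiquitin, had 465.6 to 563.0 CPM in intramuscular and 417.7 to 884.1 CPM in subcutaneous libraries, with a log2 fold change of -0.19 ± 0.22 (SE, edgeR adjusted p = 0.592). In both genes the subcutaneous libraries enclosed the intramuscular ones.

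The P-stalk genes did not share a direction. RPLP2 (chromosome 29, 50556688 to 50559203) had 390.8, 392.3, 413.5, 511.6 and 508.0 CPM in intramuscular libraries 1 to 5. It had 572.8, 425.3, 894.9, 455.7 and 957.3 CPM in subcutaneous libraries 1 to 5. Subcutaneous replicates 1, 3 and 5 exceeded all intramuscular libraries, while replicates 2 and 4 lay among them, and the log2 fold change was -0.58 ± 0.24 (SE, edgeR adjusted p = 0.130). RPLP1, its partner in the stalk, had 1528.3 to 2175.2 CPM in intramuscular and 1106.4 to 2150.2 CPM in subcutaneous libraries, with a log2 fold change of 0.16 ± 0.23 (SE, edgeR adjusted p = 0.665). RPLP0, the base of the stalk, had 1102.6 to 1268.1 CPM in intramuscular and 990.0 to 2087.3 CPM in subcutaneous libraries, with a log2 fold change of -0.21 ± 0.22 (SE, edgeR adjusted p = 0.533). The depots overlapped in all 3 genes, and none passed the threshold.

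At the other end of the order stood RPL10 and RPL15, both of the large subunit. RPL10 (chromosome X, 37450195 to 37453599), which lies near the peptidyl transferase centre, had 943.8, 1060.6, 919.0, 961.5 and 1072.4 CPM in intramuscular libraries 1 to 5. It had 889.9, 596.4, 739.2, 536.1 and 1078.7 CPM in subcutaneous libraries 1 to 5. Only subcutaneous replicate 5 reached the intramuscular range, and the log2 fold change was 0.37 ± 0.20 (SE, edgeR adjusted p = 0.241). RPL15 (chromosome 27, 42051425 to 42055369) had 602.4, 539.3, 566.5, 558.2 and 563.5 CPM in intramuscular libraries 1 to 5. It had 525.5, 393.2, 412.5, 352.1 and 564.0 CPM in subcutaneous libraries 1 to 5. Here too subcutaneous replicate 5 alone lay within the intramuscular range, and the log2 fold change was 0.33 ± 0.17 (SE, edgeR adjusted p = 0.198). RPL5 and RPL11, which carry 5S ribosomal RNA into the large subunit and bind MDM2 when ribosome assembly is disturbed, had log2 fold changes of 0.17 ± 0.18 (SE, edgeR adjusted p = 0.565) and -0.41 ± 0.22 (SE, edgeR adjusted p = 0.225). RPL6, another large subunit protein, had 0.15 ± 0.20 (SE, edgeR adjusted p = 0.641).

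The other members gave the same picture, and 3 groups of them, picked for what they are known for or where they lie after their values had been seen, are described here. Several ribosomal protein genes serve as reference genes in quantitative PCR of bovine and other tissues, among them RPS9, RPS15A, RPS18 and RPL13A. RPS9 had 612.1, 579.8, 529.2, 681.9 and 654.9 CPM in intramuscular libraries 1 to 5 and 768.2, 519.9, 852.7, 508.2 and 1200.1 CPM in subcutaneous libraries 1 to 5. RPS15A had 301.5 ± 29.4 CPM in intramuscular and 325.3 ± 121 CPM in subcutaneous fat, RPS18 463.0 ± 34.3 CPM in intramuscular and 519.7 ± 174 CPM in subcutaneous fat, and RPL13A 762.2 ± 52.6 CPM in intramuscular and 904.0 ± 330 CPM in subcutaneous fat (SD, n = 5 each). Each of the 4 varied little between intramuscular libraries and widely between subcutaneous libraries. Their log2 fold changes lay between -0.33 (RPS9, edgeR adjusted p = 0.357) and -0.11 (RPS15A, edgeR adjusted p = 0.787). Of the genes whose loss of 1 copy causes Diamond-Blackfan anaemia in humans, RPS19 had a log2 fold change of -0.20 ± 0.23 (SE, edgeR adjusted p = 0.594), RPS24 of -0.05 ± 0.22 (SE, edgeR adjusted p = 0.890) and RPL35A of -0.19 ± 0.21 (SE, edgeR adjusted p = 0.585). None of these passed the threshold. The 9 members on chromosome 18 had log2 fold changes from -0.42 (RPL28) to -0.05 (RPS16), inside the range of the other members.

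Because the members shared the swing between subcutaneous libraries, each was also set against the median of the members in the same library. This comparison was chosen after the data had been seen. On this scale the depots did not overlap in 11 of 78 members and in 6.78% of all genes. The scale takes the shared swing out of the members and adds it to the other genes. These 2 shares therefore cannot be compared, and before this scaling the depots did not overlap in 12.9% of all genes. RPSA, RPLP2, RPL11, RPS9 and RPS12 were lower in all intramuscular than in all subcutaneous libraries. RPL10, RPL15, RPL4, RPL7, RPL27A and RPS25 were higher. RPSA made up 2.24%, 2.27%, 2.43%, 2.56% and 2.36% of the members' counts in intramuscular libraries 1 to 5 and 2.82%, 3.41%, 3.31%, 3.39% and 3.25% in subcutaneous libraries 1 to 5. RPLP2 made up 1.02% to 1.23% in intramuscular and 1.41% to 1.77% in subcutaneous libraries, so neither gene had a subcutaneous share as low as any intramuscular one. RPL10 made up 2.47%, 2.77%, 2.47%, 2.30% and 2.61% in intramuscular libraries 1 to 5 and 2.19%, 1.98%, 1.46%, 1.79% and 1.70% in subcutaneous libraries 1 to 5. RPL15 made up 1.34% to 1.58% in intramuscular and 0.817% to 1.31% in subcutaneous libraries, with its 2 lowest shares in subcutaneous replicates 3 and 5. In an edgeR fit scaled to the members' median, 0 of 78 members were higher and 0 lower, where 2.73% and 0.879% of all genes were. In that edgeR fit RPSA had a log2 fold change of -0.42 (adjusted p = 0.218), RPLP2 of -0.41 (adjusted p = 0.251), RPL10 of 0.49 (adjusted p = 0.185) and RPL15 of 0.42 (adjusted p = 0.316). The members listed above were picked for not overlapping on this scale, so the regularity of their gaps is no separate result. None of them passed the threshold over all genes. With the gene length correction RPSA, RPLP2, RPL11, RPS9, RPL10, RPL15, RPL4 and RPL7 still did not overlap, and RPS12, RPL27A and RPS25 did. Without subcutaneous replicate 1 the count was 19 of 78, and 10.0% of all genes.

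**Figure D4:**
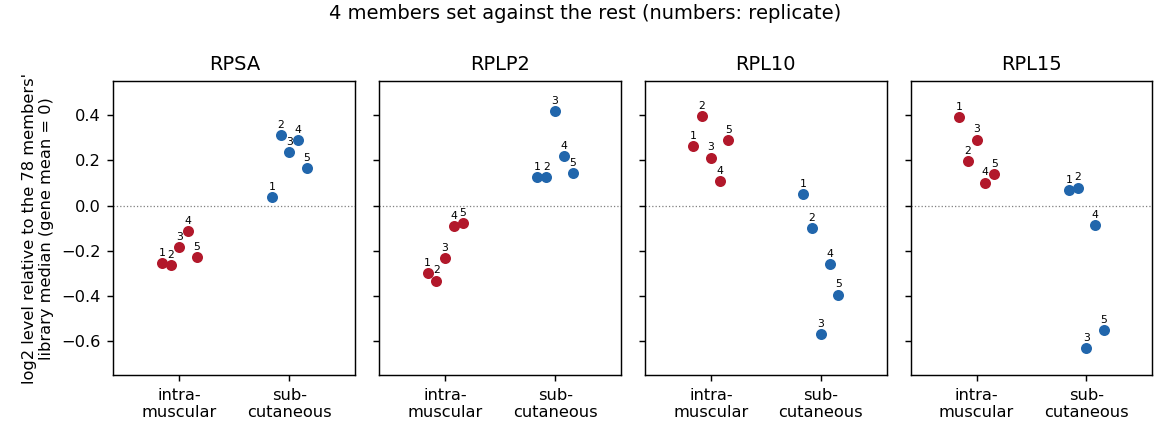
Log2 level of RPSA, RPLP2, RPL10 and RPL15 relative to the members' median in the same library, centred on each gene's mean (y axis), in intramuscular (left) and subcutaneous (right) fat; each point is a library and the number its replicate. RPSA and RPLP2 lie lower and RPL10 and RPL15 higher in every intramuscular than in every subcutaneous library.

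RPL12, whose protein helps form the base of the P-stalk, was low in the same 2 heifers in both depots. RPL12 (ENSBTAG00000025385, chromosome 10, 83129255 to 83129884) had 178.9, 385.4, 346.6, 231.5 and 414.9 CPM in intramuscular libraries 1 to 5. It had 214.5, 321.4, 621.3, 188.0 and 753.7 CPM in subcutaneous libraries 1 to 5. Heifers 1 and 4 gave the 2 lowest values of each depot. As a share of the members' counts it came to 0.469%, 1.01%, 0.930%, 0.555% and 1.01% in intramuscular and 0.529%, 1.07%, 1.23%, 0.626% and 1.19% in subcutaneous libraries 1 to 5. Heifers 1 and 4 thus had about the same low share in either depot, and the other 3 heifers a higher one. The depot difference was -0.43 ± 0.38 (log2 fold change, SE, edgeR adjusted p = 0.471). A test of the heifer term in edgeR, added after the data had been seen, gave an unadjusted p of 0.0056 and an adjusted p of 0.324, so it did not pass over all genes. In that test 0 of 78 members passed, where 0.136% of all genes did, and 2 of 78 members had an unadjusted p under 0.05, where 9.10% of all genes had. Scaled to the members' median, the edgeR heifer term of RPL12 had an unadjusted p of 0.0162 and an adjusted p of 0.874, and 0.0719% of all genes passed.

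The RPL12 row differs from the other members in its gene model. Its span equals its length of 630 bases, so the model holds no intron, which was true of 1 of 78 members and of 362 of the 12674 listed genes. It lies inside SIPA1L1 on the opposite strand (chromosome 10, 82976926 to 83274389), which itself had 15.6 to 46.6 CPM. RefSeq's gene table (ARS-UCD2.0), in which all 78 symbols were found, places RPL12 and RPL36AL on other chromosomes than the deposited table does. The deposited description of the RPL36AL row names the RPL36A mRNA. Reads shared between near-identical copies of these genes, or between strands, cannot be told apart in the counts, and which copy the RPL12 counts come from was not tested.

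**Figure D5:**
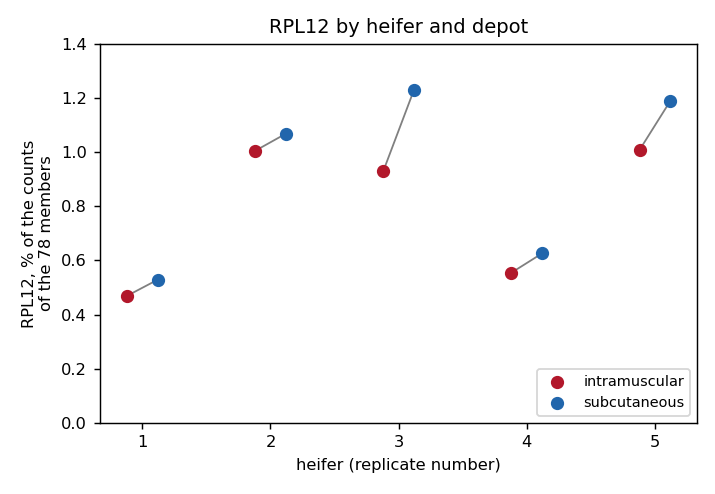
RPL12 as a percentage of the counts of the 78 members (y axis) for each heifer (x axis), with the intramuscular library left of the subcutaneous library and a line joining the pair. Heifers 1 and 4 lie between 0.469% and 0.626% in both depots and the other 3 heifers between 0.930% and 1.23%.

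Levels of different members were compared per length, as the TPM (counts per base, scaled to the same total over listed genes in each library) computed from the counts and the deposited gene lengths. The highest was RPLP1, with 7728 ± 1130 TPM in intramuscular and 5954 ± 1270 TPM in subcutaneous fat (SD, n = 5 each, as for all levels in this paragraph). RPS3A followed with 3543 ± 224 TPM in intramuscular and 2988 ± 621 TPM in subcutaneous fat. RPS15 had 2407 ± 165 TPM in intramuscular and 2540 ± 765 TPM in subcutaneous fat, and RPLP0 had 2289 ± 124 TPM in intramuscular and 2279 ± 448 TPM in subcutaneous fat. Depot differences in TPM were not tested, and none of these genes passed the edgeR test of depot on the counts. These levels depend on the length of the deposited gene model, which was 516 bases for RPLP1 and 3202 bases for RPSA.

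The 4 lowest levels belonged to paralogs, copies that stand beside a main form (RPL26L1, RPL7L1, RPL22L1 and RPS4Y1), and the next lowest to RPS19BP1. RPL26L1 reached 36.3 ± 5.59 TPM in intramuscular and 41.7 ± 11.1 TPM in subcutaneous fat. This was 2.54% ± 0.404 of the level of RPL26 in intramuscular and 3.35% ± 0.694 in subcutaneous fat. RPL7L1, a ribosome assembly relative of RPL7, came to 4.02% ± 0.321 of RPL7 in intramuscular and 4.79% ± 0.645 in subcutaneous fat (SD, n = 5 each). Its ratio lay between 3.66% and 4.39% in intramuscular and between 4.41% and 5.93% in subcutaneous libraries, so the depots did not overlap, and this ratio was not tested. Set against the members' median, the depots did not overlap in RPL7 but did in RPL7L1. In the edgeR fit scaled to that median the log2 fold changes were 0.22 for RPL7 and -0.04 for RPL7L1. The ratios of RPL26L1 to RPL26 and of RPS27L to RPS27 overlapped between the depots. RPS4Y1, read from chromosome 23 in the deposited table, came to 6.63% ± 1.54 of the X-linked RPS4X in intramuscular and 10.0% ± 3.00 in subcutaneous fat, with overlap. RPS27L, a target of p53 in human cells, stood much closer to its partner, at 26.2% ± 3.09 of RPS27 in intramuscular and 24.0% ± 3.25 in subcutaneous fat. RPL22L1, the paralog of RPL22, had 63.7 ± 13.1 TPM in intramuscular and 61.5 ± 20.4 TPM in subcutaneous fat, and RPL22 itself was not analysed here. None of these paralogs passed the depot test, with log2 fold changes of -0.40 ± 0.24 for RPL26L1 (SE, edgeR adjusted p = 0.270), -0.46 ± 0.22 for RPS4Y1 (SE, edgeR adjusted p = 0.184) and values between -0.14 and -0.02 for RPL22L1, RPL7L1 and RPS27L. Paralogs share sequence with their main form, so the counting may have split reads between them.

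Ribosomal proteins whose symbols the rule does not take, here FAU and RACK1, were not called either. FAU, a ubiquitin-like fusion that yields RPS30, had 284.2 to 303.4 CPM in intramuscular and 231.5 to 557.6 CPM in subcutaneous libraries. RACK1, a signalling scaffold on the 40S subunit, had 899.2 to 997.7 CPM in intramuscular and 641.9 to 1255.9 CPM in subcutaneous libraries. In each the highest library was subcutaneous replicate 5, and the log2 fold changes were -0.28 for FAU (edgeR adjusted p = 0.445) and 0.07 for RACK1 (edgeR adjusted p = 0.853).

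Around the ribosome, 6 lists of genes of translation, ribosome assembly and growth signalling held 195 tested genes, of which 11 were higher and 5 lower in intramuscular fat. These 16 are 8.21% of the listed genes, where 12.2% of all tested genes were called. Of 41 initiation factors, 5 passed as higher in intramuscular fat (12.2% of them, beside 6.75% of all genes) and 1 as lower, and their median log2 fold change was 0.10. EIF3J, the loosely bound subunit of the eIF3 complex, had 101.8, 73.5, 86.1, 82.4 and 77.1 CPM in intramuscular libraries 1 to 5. It had 50.2, 49.3, 42.0, 57.3 and 47.2 CPM in subcutaneous libraries 1 to 5. All intramuscular values exceeded all subcutaneous ones, and the log2 fold change was 0.77 ± 0.14 (SE, edgeR adjusted p = 0.0054). EIF4A2, a helicase that unwinds mRNA leaders, had 668 ± 52.3 CPM in intramuscular and 404 ± 49.1 CPM in subcutaneous fat (SD, n = 5 each), with a log2 fold change of 0.73 ± 0.15 (SE, edgeR adjusted p = 0.0100). EIF4G2, a scaffold for cap-independent initiation, had 1099 ± 168 CPM in intramuscular and 657 ± 108 CPM in subcutaneous fat (SD, n = 5 each), with 0.74 ± 0.18 (SE, edgeR adjusted p = 0.0208). EIF4G3, a scaffold of the cap-binding complex, and EIF4B, a helper of the helicase and itself a TOP mRNA, were higher by 0.69 (edgeR adjusted p = 0.0262) and 0.63 (edgeR adjusted p = 0.0486) on the log2 scale. EIF6, which keeps 60S subunits from joining early, was lower at -0.68 (edgeR adjusted p = 0.0337) and was named after its value was seen. EIF3J and EIF4A2 kept the call in all 10 edgeR fits that left out 1 library, EIF4G2 in 9, EIF4G3 in 7, EIF6 in 3 and EIF4B in 2.

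Elongation and release factors, of which 12 were tested, gave 0 higher and 0 lower, with a median log2 fold change of 0.16. Of 18 other TOP mRNAs tested, which share their translational control with the members, 1 was higher (EIF4B) and 0 were lower, with a median of 0.16, while the members' median was -0.18. Ribosome assembly factors gave 4 higher and 2 lower of 90 (4.44% and 2.22%, beside 6.75% and 5.49% of all genes), with a median of 0.07. RIOK3, a kinase of 40S maturation, had 89.9 ± 8.78 CPM in intramuscular and 55.9 ± 3.82 CPM in subcutaneous fat (SD, n = 5 each), a log2 fold change of 0.69 ± 0.13 (SE, edgeR adjusted p = 0.0061). MDN1, the giant ATPase that strips factors from the 60S precursor, was higher by 0.80 (edgeR adjusted p = 0.0142) and TSR1, a 40S assembly factor, by 0.66 (edgeR adjusted p = 0.0151). With the gene length correction MDN1 stood at 0.36 (edgeR adjusted p = 0.278) and TSR1 at 0.48 (edgeR adjusted p = 0.0570). NOP16, a nucleolar 60S factor, had 41.8 ± 12.3 CPM in intramuscular and 80.3 ± 22.6 CPM in subcutaneous fat (SD, n = 5 each), a log2 fold change of -0.94 ± 0.24 (SE, edgeR adjusted p = 0.0250). The other 2 called genes, named after their values were seen, were NOP58, a box C/D particle protein, at 0.45 (edgeR adjusted p = 0.0414) and NOP10, a box H/ACA particle protein, at -0.95 (edgeR adjusted p = 0.0351). With 1 library left out, RIOK3 and MDN1 kept the call in all 10 edgeR fits and TSR1 in 9, but NOP16 in 5, NOP10 in 3 and NOP58 in 2.

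Of 15 genes of RNA polymerase I and its factors, which make the large ribosomal RNA, 1 was higher and 0 were lower, with a median log2 fold change of 0.02. It was RRN3, the factor that brings the polymerase to its promoter, at 0.53 ± 0.16 (SE, edgeR adjusted p = 0.0458). Of 30 genes of mTORC1 and S6 kinase signalling, 1 was higher and 2 were lower, with a median of -0.04. DDIT4L, a repressor of mTORC1 known from skeletal muscle, had 325.8, 113.3, 89.7, 45.1 and 29.8 CPM in intramuscular libraries 1 to 5. It had 20.4, 15.98, 34.6, 30.2 and 11.8 CPM in subcutaneous libraries 1 to 5. The highest value belonged to the intramuscular library with the most striated muscle transcripts (2556 CPM summed), the lowest intramuscular value lay among the subcutaneous ones, and the log2 fold change was 2.41 ± 0.56 (SE, edgeR adjusted p = 0.0169). LAMTOR1, which anchors the mTORC1 platform on lysosomes, was lower at -0.76 (edgeR adjusted p = 0.0252), and TSC2, which restrains mTORC1, at -0.42 (edgeR adjusted p = 0.0485, and 0.0578 with the heifer as a block). DDIT4L kept the call in all 10 edgeR fits that left out 1 library, LAMTOR1 in 6, RRN3 in 3 and TSC2 in 1. Without intramuscular replicates 1 and 3, the 2 libraries richest in muscle transcripts, none of these 16 called genes around the ribosome passed in edgeR. The adjusted p values ran from 0.0564 for EIF3J to 0.253 for EIF4B, and no sign changed. With 3 intramuscular libraries left, calls over all genes also fell, to 306 higher and 67 lower, against 845 and 688 with all libraries. EIF3J stood at 0.66 there and 0.77 with all libraries, EIF4A2 at 0.67 and 0.73, RIOK3 at 0.61 and 0.69, and DDIT4L at 1.47 and 2.41. Over all alternative fits, this one included, EIF3J, EIF4A2, RIOK3 and DDIT4L each lost the call in 2 and MDN1 in 3.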

How the data were processed

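The authors deposited 1 table of raw counts per gene for 10 libraries, using featureCounts 2.0.2 after STAR 2.7.11a and Trimmomatic 0.39, with DESeq2 1.42.0 for the test, per the submitters' processing notes. The sources used here give neither the genome build nor the strand setting. The deposited table also holds the authors' mean of counts per depot and a test statistic (each treated as a score), a base mean (a size-factor-scaled signal), a log2 fold change, p-values and gene lengths. P-values of the depot tests set the depot difference against the variation left between libraries. Without the heifer as a block, that variation includes differences between animals.

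From the counts, edgeR 4.0.16 in R 4.3.3 (TMM scaling, filterByExpr, quasi-likelihood test of depot, two-sided, no block, Benjamini-Hochberg adjustment at 0.05) tested 12521 genes and removed 153. It was checked on simulated counts. Log2 CPM used a prior count of 2. The length correction was a lowess fit in each library (span 0.3). It fitted each gene's log2 CPM, minus the gene's mean over the libraries, on log2 gene length. Alternatives used DESeq2 1.42.0 and limma 3.58.1. Replicate numbers pair the depots: the design text gives the same 5 heifers, and same-numbered libraries deviated together (correlations 0.102 to 0.237).

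The members, gene lists and tests were chosen with earlier results of these data known. Named members were the called one, the 5 highest and 5 lowest by fold change and by level per length, paralogs, P-stalk genes, RPS6, RPL5, RPL11, RPSA and RPS27A. In other lists, up to 4 called genes of smallest p were named. Other genes named are said in the text to be chosen after their values were seen, and the statements on alternatives do not cover them, apart from EIF6, NOP10 and NOP58. Some genes that the rules take are not reported here.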

Additional observations from a re-analysis of the deposited data

Results flagged for a closer look

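RPS27L in intramuscular replicate 4 stood far from the other libraries of its depot, with 78.3 CPM against 61.9 to 65.7 CPM in the other 4. It was 1 of 52 groups of 5 values examined, and chance flags about 1 group in 20.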

How the results depend on the processing

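In 21 alternative fits no member was higher, and the count of lower members was 0 with total count scaling, limma voom, scaling to the members' median, without the intramuscular libraries richest in muscle transcripts and without subcutaneous replicates 3 and 5, and 0 to 1 with 1 library left out. The members' median log2 fold change was -0.29 to 0.02 with 1 library left out, 0.20 without subcutaneous replicates 3 and 5, and 0.01 with total count scaling, where the median of all genes moved to 0.13. With the replicate block it was -0.12, and the block changed no other call among the named genes than that of TSC2. The share of counts differed by -0.0664 to 0.541 percentage points with 1 library left out. Relative to the members' median, 11 to 19 members did not overlap with 1 library left out, as did 7.16% to 10.0% of all genes. On this scale the members and all genes cannot be compared. Leaving out subcutaneous replicates 3 and 5, scaling to the members' median, and the fits for the comparison sets and translation lists were chosen after the data had been seen. Signs turned in these genes, among them RPS21 (-0.49 with all libraries), RPS15 (-0.32) and FAU (-0.28). With upper quartile scaling RPS27L was at 0.0064, with voom at 0.0443 and with the replicate block at 0.0445. With total count scaling RPL22L1 was at 0.0365, RPL7L1 at 0.0480, RPS27L at 0.17, RPS6 at 0.10 and RPS27A at 0.0052. With the length correction RPS15 was at 0.0386, RPLP0 at 0.0438, RPL22L1 at 0.0806, RPS27L at 0.31, RPS6 at 0.16, RPS27A at 0.12 and FAU at 0.0692. Without subcutaneous replicates 3 and 5 RPS21 was at 0.13, RPS15 at 0.17, RPLP0 at 0.10, RPL7L1 at 0.0719, RPS27L at 0.41, RPS6 at 0.21, RPS27A at 0.20 and FAU at 0.19. Without the muscle-rich libraries RPL22L1 was at 0.0245 and RPS27L at 0.0278. Scaled to the members' median RPS27L was at 0.12 and RPS6 at 0.0610. With 1 library left out RPS3A ran from -0.0675 to 0.15, RPS4X from -0.0116 to 0.19, RPL22L1 from -0.28 to 0.0612, RPS27L from -0.13 to 0.13, RPS6 from -0.19 to 0.10, RPS27A from -0.29 to 0.0020 and RACK1 from -0.0349 to 0.21. The cause of these turns was not tested. With 5 animals a depot, the unadjusted 95% interval had a median half-width of 0.48 on the log2 scale over the ribosomal protein genes.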
